A study of Mus musculus with 6 samples.

Results

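n271995 and TCONS_00040388 are 2 abundant long non-coding RNAs (lncRNAs) of cultured mouse spermatogonial stem cells (SSCs), out of 73710 lncRNA transcripts listed in any library of the series. They were chosen by their measured values. A set of 938 lncRNAs changed by 2-fold or more, with an unadjusted P under 0.05, both on removal of GDNF (glial cell line-derived neurotrophic factor) and on its return, and among these the pair ranked 1 and 3 for reads in normal culture. Rank 2 was TCONS_00074936, which serves as the comparator. It is the only listed transcript of 6384 bp. It is taken here for lncRNA033862, an antisense transcript of the Gfra1 locus, from its length alone. The study describes lncRNA033862 as overlapping an exon of Gfra1. The files carry no strand, so any reads of Gfra1 mRNA counted on TCONS_00074936 cannot be told apart. n271995 (4862 bp) carries the identifier of a known lncRNA in the NONCODE library, and TCONS_00040388 (4807 bp) carries that of a predicted lncRNA from a Cufflinks assembly of reads. The files pair neither identifier with a gene name, strand or coordinates, so the genomic position and the sequence of the pair were not analysed here.

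GDNF is secreted by somatic cells of the testis and acts on spermatogonia through the co-receptor GFRA1 and the receptor tyrosine kinase RET. It is the main extrinsic factor for SSC self-renewal, and several transcription factor genes of undifferentiated spermatogonia, such as Etv5 and Bcl6b, depend on it. Some lncRNAs act on the chromatin of neighbouring genes, whereas many of these untranslated RNAs have no assigned role. No role is assigned to n271995 or TCONS_00040388 by the labels or the study.

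RNA came from C57BL/6 SSC cultures at passages 10 to 20. The cultures were founded from Thy1-positive testis cells of 5 mice aged 6 to 8 days and grown on mitotically inactivated STO feeder cells in serum-free medium, with GDNF at 20 ng/ml, soluble GFRA1 and FGF2 at 1 ng/ml. Normal cultures (N) kept GDNF throughout, 0h cultures were harvested after 18 h without GDNF, and 8h cultures were given GDNF again for 8 h after the same 18 h without it. There were 2 libraries in each condition, numbered 1 and 2. The study used 2 independently established lines, and the labels do not say which number belongs to which line, so the numbers are called replicates here and p-values measure only the spread between these samples. Libraries held 7.7e+06 to 8.5e+06 reads counted on lncRNAs. Germ cell clumps were collected by pipetting, a step described as giving germ cells of high purity, protein-coding markers of germ or feeder cells were not analysed here, and in such bulk RNA fewer cells of a type and less RNA per cell cannot be told apart.

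In N, n271995 had 7860 reads in replicate 1 and 11788 in replicate 2. After 18 h without GDNF it had 3144 and 3570 reads, and 8 h after GDNF was returned it had 5170 and 8444. Scaled for library size, the N libraries had 8205 and 11726 normalized counts, those of 0h had 3240 and 3424, and those of 8h had 5075 and 8401. Every 0h library lay below every N and 8h library, which the choice of the transcript favoured. Replicate 2 of 8h reached above replicate 1 of N. The transcript took 0.100% of the counted reads of replicate 1 of N (exact 95% binomial interval 0.0982% to 0.103%) and 0.0386% of those of replicate 1 of 0h (0.0373% to 0.0400%). These intervals cover counting error only, which is far smaller than the distance between the replicates of N and of 8h.

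For TCONS_00040388 the N libraries held 7558 and 8572 reads, the 0h libraries 3010 and 4229, and the 8h libraries 5708 and 8835. Normalized, these were 7890 and 8527 for N, 3102 and 4056 for 0h, and 5603 and 8790 for 8h. Here too both 0h libraries were the lowest, but the 8h libraries lay on either side of both N libraries. The comparator TCONS_00074936 had normalized counts of 9158 and 8169 for N, 3442 and 3096 for 0h, and 6210 and 7330 for 8h. Its conditions did not overlap, with each 8h library between the 0h and the N libraries. These transcripts were picked for changes between the same conditions, which favours such separation. How many of all lncRNAs were separated in this way was not counted, and nothing is read from it.

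**Figure D1:**
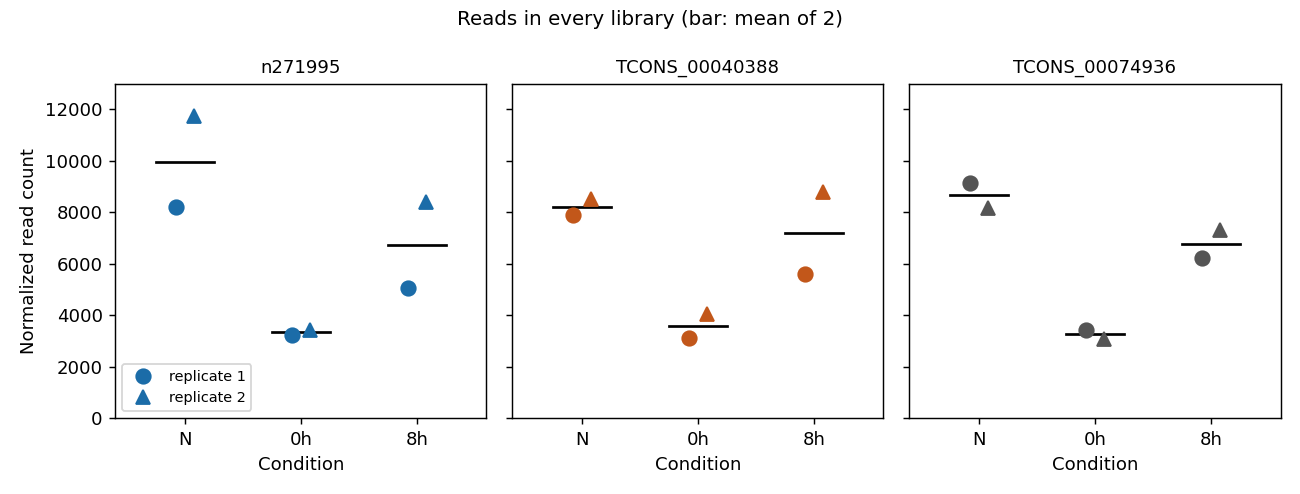
Normalized read counts (y axis, reads scaled to a common library size) of n271995, TCONS_00040388 and the comparator TCONS_00074936 in N, 0h and 8h (x axis), with a circle for replicate 1, a triangle for replicate 2 and a bar at the mean of both. No 0h point lies above 4056, the 8h points of n271995 and TCONS_00040388 are far apart, and those of TCONS_00074936 are close together.

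Divided by full transcript length, the levels of the pair were close to each other and above the comparator in every library. Reads lay on 52.4% to 60.2% of the comparator's length and on at least 98.6% of that of n271995. Levels per covered base were not compared. In RPKM, which divides a count by transcript length and library total, the mean of n271995 was 250.7 ± 62.5 for N, 82.9 ± 4.91 for 0h and 177.6 ± 55.6 for 8h (SD, n = 2 each). The RPKM of TCONS_00040388 was, in that order, 208.8 ± 11.4, 90.2 ± 18.8 and 192.0 ± 53.1, and that of TCONS_00074936 was 166.0 ± 13.5, 61.9 ± 3.39 and 136.5 ± 10.8 (SD, n = 2 each). The order of n271995 and TCONS_00040388 was not stable. Their RPKM ratio was 1.03 and 1.36 in the N libraries, 1.03 and 0.835 in those of 0h, and 0.896 and 0.945 in those of 8h, so n271995 was the higher in both N libraries and TCONS_00040388 in both 8h libraries. By mean normalized counts n271995 stood at rank 39 among all lncRNAs in N, rank 187 in 0h and rank 63 in 8h. TCONS_00040388 stood at rank 57 in N, at rank 172 in 0h and rank 55 in 8h. By mean RPKM their ranks were far lower, at 175, 769 and 264 for n271995 and at 236, 679 and 241 for TCONS_00040388. Together they took 0.197% and 0.248% of the counted reads of the N libraries, 0.0756% and 0.0918% for 0h, and 0.142% and 0.216% for 8h.

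The changes after withdrawal and after refreshment chose the pair and are given as a description, without a test. On withdrawal (0h against N), n271995 fell 2.99-fold, a log2 fold change of -1.58 with a standard error (SE) of 0.22 in edgeR's fit of all 6 libraries. TCONS_00040388 fell 2.29-fold, a log2 fold change of -1.20 (SE 0.20). TCONS_00074936 lay between them, with -1.41 (SE 0.15). In the same fit 0.29% of the 39310 lncRNAs tested fell at least 2-fold at a Benjamini-Hochberg FDR below 0.05 and 0.221% rose. On refreshment (8h against 0h) the log2 fold changes were 1.02 (SE 0.22) for n271995, 1.01 (SE 0.20) for TCONS_00040388 and 1.05 (SE 0.14) for TCONS_00074936. Of all lncRNAs tested, 0.499% rose and 0.392% fell by the same criteria. The 3 transcripts thus had the same direction in both comparisons. Once a replicate block was included, the withdrawal values were -1.55 (SE 0.12) for n271995, -1.22 (SE 0.12) for TCONS_00040388 and -1.41 (SE 0.11) for TCONS_00074936. Differences in size between the 3 were not tested.

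On refreshment the pair sat just inside the 2-fold limit of the rule, at 2.02-fold and 2.01-fold. When a replicate block was added to the fit, the log2 values were 0.97 and 0.99, below that limit. They were 0.62 for n271995 and 0.66 for TCONS_00040388 when replicate 2 of 8h was left out. In the transcript counts used here there was a wide step in abundance below the third transcript, and other ways of counting were not compared. The next in reads among the lncRNAs that changed both times was n295145 (811 bp), with 2826 and 3036 normalized counts in N, and after it TCONS_00085329 (8120 bp), with 2696 and 2352. Their means in N were 2.80-fold and 3.25-fold below that of TCONS_00040388. Both also fell on withdrawal and rose on refreshment, with log2 values of -1.62 and 1.40 for n295145 and of -1.03 and 1.01 for TCONS_00085329.

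The lncRNAs with a mean of at least 1000 normalized counts in N give the pair's setting. Of these 1126, 23 (2.04%) fell at least 2-fold on withdrawal by the same criteria and 5 (0.444%) rose. Over all lncRNAs tested the shares were 0.29% and 0.221%. On refreshment 17 (1.51%) rose and 9 (0.799%) fell, against 0.499% and 0.392% over all. The median log2 change of the 1126 was -0.06 on withdrawal and -0.08 on refreshment, against -0.01 and 0.00 over all lncRNAs tested. The members were chosen for changes of at least 2-fold in both comparisons. Their places near the ends of the list follow from that choice. On withdrawal 7 of the 1126 had a lower log2 fold change than n271995 and 15 a lower one than TCONS_00040388. On refreshment 15 had a higher one than n271995 and 16 than TCONS_00040388.

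**Figure D2:**
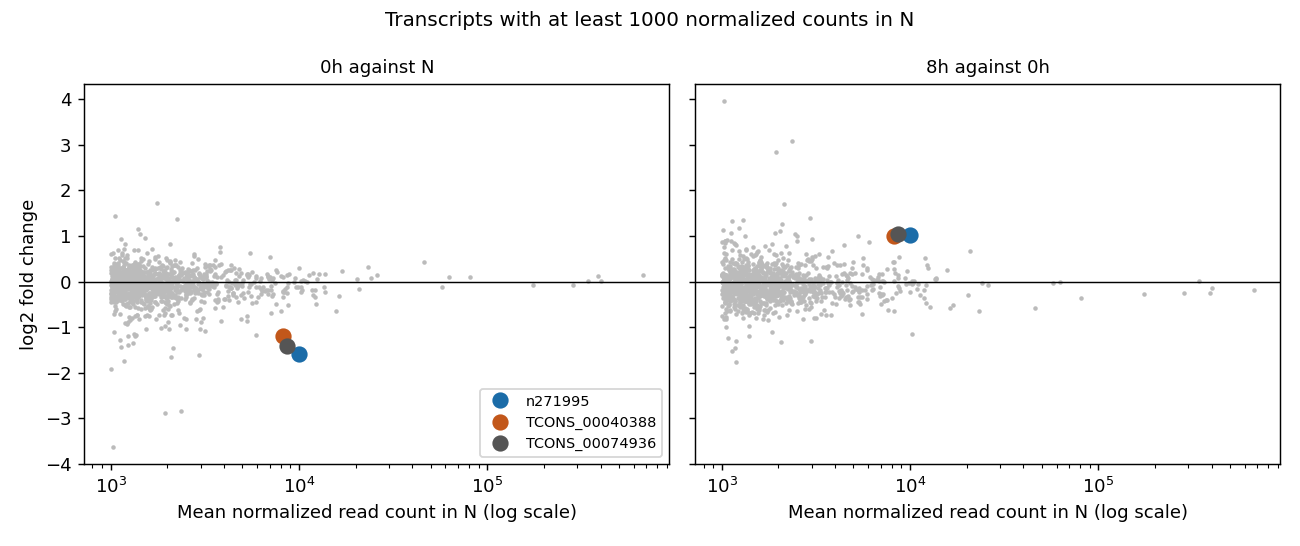
log2 fold change (y axis) against mean normalized read count in N (x axis, log scale) for the 1126 lncRNAs with at least 1000 normalized counts in N (grey points), on withdrawal (left) and on refreshment (right), with the 3 named transcripts as large points. The 3 sit together, between 8208 and 9965 normalized counts, low in the left panel and high in the right. These places follow from the choice of the transcripts.

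Replicates 1 and 2 moved the same way but not equally. On withdrawal n271995 changed by -1.34 on the log2 scale in replicate 1 and by -1.78 in replicate 2, a difference of -0.44 with a counting error of 0.04. TCONS_00040388 changed by -1.35 and -1.07, the opposite order. TCONS_00074936 changed by -1.41 and -1.40, a difference of 0.01, within its counting error of 0.04. On refreshment the rise was larger in replicate 2 for all 3 transcripts. It was 0.65 and 1.29 on the log2 scale for n271995, 0.85 and 1.12 for TCONS_00040388, and 0.85 and 1.24 for TCONS_00074936. With a single library per condition and replicate number, differences between the replicates' changes have no replicate error of their own and were not tested.

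**Figure D3:**
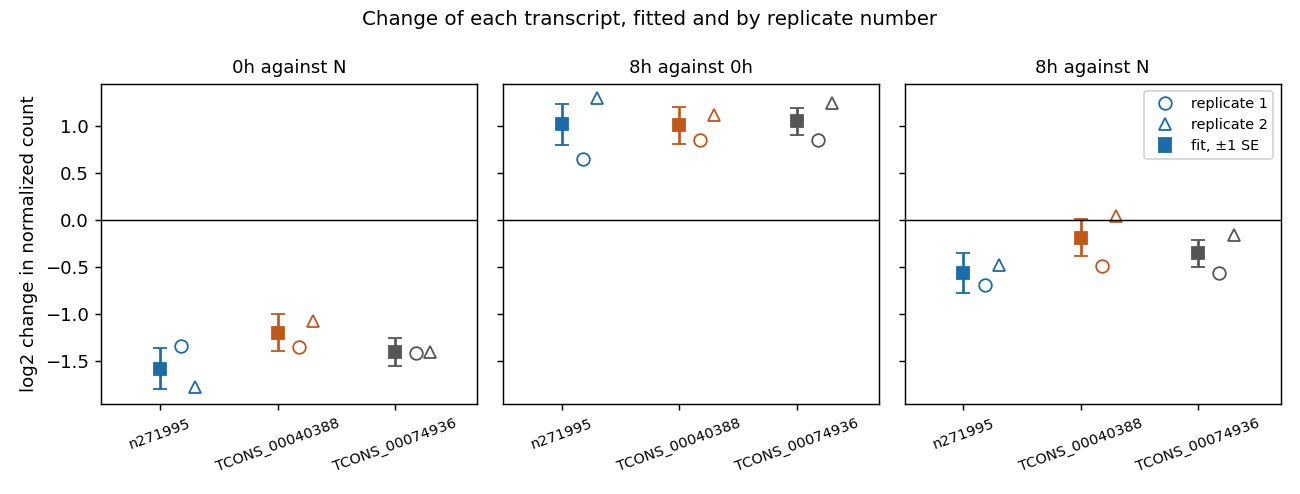
log2 change in normalized read count (y axis) of the 3 transcripts (x axis) for 0h against N, 8h against 0h and 8h against N. Squares with bars are the fitted log2 fold changes ± 1 SE, circles are replicate 1 and triangles replicate 2. On withdrawal the replicates of TCONS_00074936 coincide and those of n271995 are 0.44 apart, and against N only replicate 2 of TCONS_00040388 lies above 0.

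The level of the pair differed between the replicate numbers. This measure was not used to choose the members. Allowing for condition, n271995 was 1.36-fold higher in replicate 2 than in replicate 1 (log2 ratio 0.44, SE 0.10, FDR 0.0185 by edgeR, adjusted by Benjamini-Hochberg over all 39310 lncRNAs). For TCONS_00040388 the ratio was 1.30-fold (log2 ratio 0.38, SE 0.09, FDR 0.033 in the same test), and for TCONS_00074936 it was 0.98-fold (log2 ratio -0.03, SE 0.09, FDR 0.95). At an FDR below 0.05, 1.34% of all lncRNAs tested were higher in replicate 2 and 1.14% lower. Among the 1126 abundant lncRNAs 10.1% were higher and 3.91% lower, so such a difference was not rare at this abundance. n271995 and TCONS_00040388 were higher in replicate 2 in 3 of 3 conditions. How many of all lncRNAs shared this pattern was not counted, and nothing is read from it. The ratio of replicate 2 to replicate 1 for n271995 was 1.43, 1.06 and 1.66 in N, 0h and 8h, respectively, for TCONS_00040388 it was 1.08, 1.31 and 1.57, whereas for TCONS_00074936 it was 0.892, 0.899 and 1.18. An exact two-sided permutation of 3 libraries against 3, which ignores condition, gave p = 0.5 for n271995 and for TCONS_00040388, where the smallest p possible is 0.1. The differences between conditions, for which the pair was chosen, enter its spread. It therefore cannot decide on a difference between replicates, and nothing is read from it. With 1 library left out, the FDR of n271995 was 0.18 without replicate 1 of N and 0.20 without replicate 2 of N. That of TCONS_00040388 rose to between 0.098 and 0.11, past the threshold, when any of the 0h or 8h libraries was left out.

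Counted within a library, without any normalization, the ratio of either transcript to the comparator also differed between the replicates in each condition. The comparator itself was lower in replicate 2 in N and 0h, at 0.892 and 0.899 of replicate 1 in normalized counts. It was higher in 8h, at 1.18, so the ratios carry the comparator's own differences too. For every 1 read of TCONS_00074936, n271995 had 0.896 reads in replicate 1 of N (95% counting interval 0.869 to 0.924) and 1.44 in replicate 2 (1.40 to 1.48). The ratios were 0.941 and 1.11 for 0h, and 0.817 and 1.15 for 8h. For TCONS_00040388 they were 0.862 and 1.04 for N, 0.901 and 1.31 for 0h, and 0.902 and 1.20 for 8h. In each of the 3 conditions the ratio was below 1 in replicate 1 and above 1 in replicate 2, for either transcript.

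**Figure D4:**
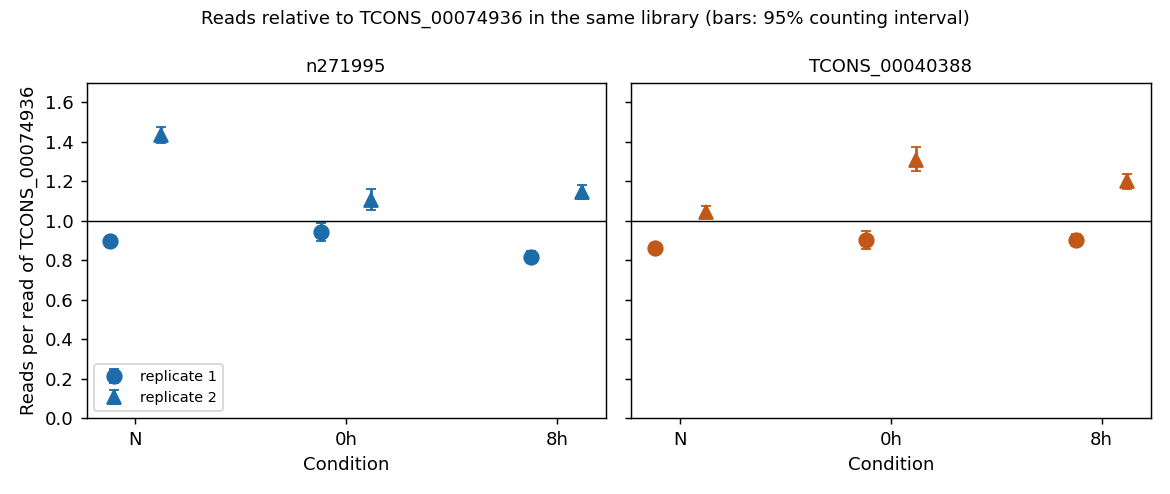
Reads of n271995 (left) and TCONS_00040388 (right) per read of TCONS_00074936 in the same library (y axis) by condition (x axis), with circles for replicate 1, triangles for replicate 2 and bars for the 95% counting interval. The circles lie between 0.817 and 0.941 and the triangles between 1.04 and 1.44.

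The fitted change of 8h against N is the sum of the withdrawal and the refreshment change, which chose the pair, so it too is given as a description, without a test of the members. Its log2 value was -0.57 (SE 0.22) for n271995, -0.19 (SE 0.20) for TCONS_00040388 and -0.36 (SE 0.14) for TCONS_00074936. With the replicate block the values were -0.58 (SE 0.12), -0.225 (SE 0.12) and -0.35 (SE 0.11). At an FDR below 0.05 by edgeR, 0.0636% of all lncRNAs tested were higher in 8h than in N and 0.17% were lower. The value of n271995 was -0.96 when replicate 2 of 8h was left out and -0.24 when replicate 1 of 8h was. Leaving out replicate 1 or 2 of N gave -0.80 and -0.28, respectively. That of TCONS_00040388 was -0.54 without replicate 2 of 8h and turned to 0.11 without replicate 1 of 8h.

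As a share of the mean in N, n271995 stood at 33.4% in 0h and 67.6% in 8h, TCONS_00040388 at 43.6% and 87.7%, and TCONS_00074936 at 37.7% and 78.2%. The part of the loss made up in 8 h (8h minus 0h, divided by N minus 0h) was therefore 51.3% for n271995, 78.1% for TCONS_00040388 and 64.9% for TCONS_00074936. By replicate it was 37.0% and 59.9% for n271995, 52.2% and 105.9% for TCONS_00040388, and 48.4% and 83.5% for TCONS_00074936. Replicate 2 had the larger value for all 3 transcripts. All 3 rose close to 2-fold from 0h, so the order of these shares follows from how far each had fallen, and nothing further is read from it. A single library moved the shares and their order. Without replicate 2 of 8h the share was 26.3% for n271995, 43.7% for TCONS_00040388 and 54.5% for TCONS_00074936, and without replicate 1 of 8h it was 76.4%, 112.6% and 75.3%. Without replicate 2 of N it was 69.9% for n271995, 83.9% for TCONS_00040388 and 59.5% for TCONS_00074936.

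Reads were spread very differently along the 3 transcripts. The deposited coverage is the percentage of a transcript's bases with at least 1 read, and it played no part in the choice. n271995 was covered over 99.2% and 99.6% of its length in the N libraries, 98.6% and 99.5% in those of 0h, and 99.4% and 99.4% in those of 8h. At most 67 bases lacked reads in any library, although the reads themselves varied 3.75-fold. TCONS_00040388 was covered over 73.9% and 71.4% of its length in the N libraries, 59.3% and 73.0% in those of 0h, and 68.7% and 96.8% in those of 8h. TCONS_00074936 stayed between 52.4% and 60.2%, with its lowest values in both 0h libraries.

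The coverage of TCONS_00040388 in replicate 2 of 8h stood apart. That library had only 263 more reads on the transcript than replicate 2 of N, yet its coverage was 25.3 percentage points higher, and the bases without reads numbered 155 against 1373. It exceeded the next highest library of TCONS_00040388 by 22.9 points. Of the 163 lncRNAs with at least 3000 reads in every library, 1 was at least 20 points higher in this library than in its other 5, TCONS_00040388 itself. The library was picked for that value, and the same count was not made in the others. In replicate 2 of 0h, n289999 (1684 bp) was covered over 94.36% of its length, against at most 72.15% elsewhere. Over these 163 the median difference in coverage between replicate 2 of 8h and replicate 2 of N was -0.09 points. The range of coverage over the 6 libraries was 37.5 points for TCONS_00040388, 7.84 for TCONS_00074936 and 0.93 for n271995, against a median of 5.21 for the 163 and of 8.81 for the 71 predicted transcripts among them. A wider range than that of TCONS_00040388 was found for 2 of the 163. The part of the coverage difference of TCONS_00040388 in the read counts was not tested. The refreshment change of TCONS_00040388 without replicate 2 of 8h was 0.66 on the log2 scale, as given above.

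**Figure D5:**
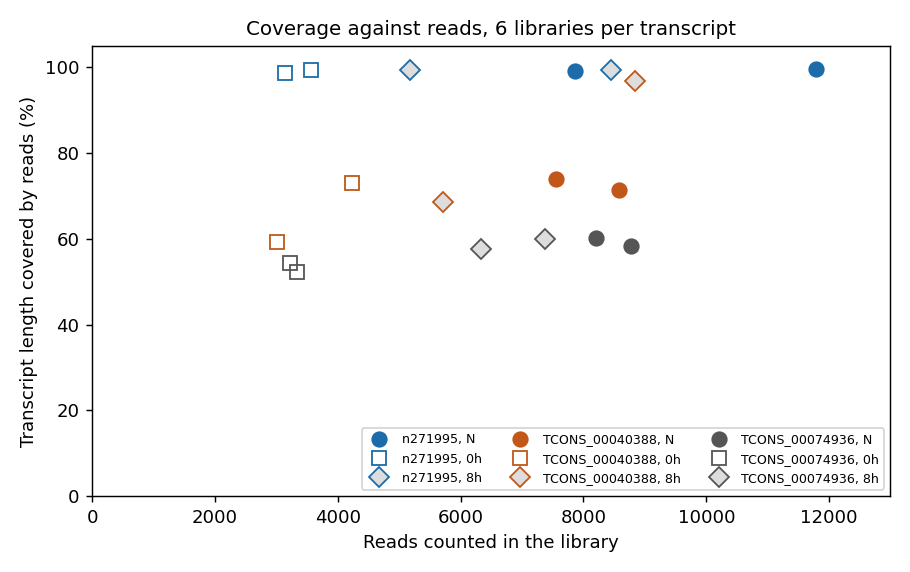
Coverage, in percent of transcript length (y axis), against reads counted (x axis) for the 3 transcripts in each of the 6 libraries, with filled circles for N, open squares for 0h and grey diamonds for 8h. n271995 stays above 98% at any number of reads, TCONS_00074936 stays below 61%, and TCONS_00040388 reaches 96.8% in a single 8h library.

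The spread between the libraries of a condition was larger for either transcript than for the comparator in 8h. It was also larger for n271995 in N and for TCONS_00040388 in 0h, and smaller for n271995 in 0h and for TCONS_00040388 in N. The coefficient of variation of normalized counts for n271995 was 25%, 3.90% and 34.9% in N, 0h and 8h, respectively, that of TCONS_00040388 was 5.49%, 18.8% and 31.3%, and that of TCONS_00074936 was 8.07%, 7.49% and 11.7% (n = 2 each). edgeR's estimate of the biological coefficient of variation of each transcript, which is drawn toward that of other transcripts, was 19.1% for n271995, 18.0% for TCONS_00040388 and 15.1% for TCONS_00074936, with a median of 15.6% over the 1126 abundant lncRNAs. With the replicate number in the fit these estimates lay close together, at 10.9%, 10.3% and 10.0%, with a median of 9.76%.

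The lncRNAs whose pattern over the 6 libraries was most like that of the pair were found among the 2327 with a mean of at least 500 normalized counts, by the root mean square (RMS) difference of their log2 values after each was centred on its own mean. The points of each comparison are the same 6 libraries with the same scaling, so the values describe likeness only. n284406 (1900 bp) came first for either transcript, at an RMS difference of 0.11 from TCONS_00040388 (Pearson's r 0.983 over 6 libraries) and of 0.21 from n271995 (r 0.971). Its normalized counts were 896 and 1176 for N, 421 and 536 for 0h, and 653 and 1122 for 8h. They were higher in replicate 2 in each condition, which the choice by likeness over the same 6 libraries favoured. For TCONS_00040388 the next were TCONS_00147733 (RMS 0.14, r 0.987), TCONS_00122403 (0.14, r 0.968), n269408 (0.185, r 0.946) and n295145 (0.19, r 0.990). By r, n295145 and TCONS_00147733 stood above n284406. For n271995 the next were n295145 (0.22), TCONS_00040388 itself (0.22, r 0.956), n269408 (0.27) and TCONS_00074936 (0.27, r 0.923). Seen from TCONS_00040388, n271995 and TCONS_00074936 were only at places 12 and 13, with RMS differences of 0.22 and 0.23.

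Transcripts numbered beside the pair held few reads. All 10 NONCODE numbers within 5 of n271995 were listed, and none had more than 82 reads in any library. Of the 10 numbers within 5 of TCONS_00040388, 2 were listed, with at most 16 reads. Of these 12 neighbours in number, 6 had enough reads to enter the fit.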

How the data were processed

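The authors isolated total RNA with Trizol, depleted it of ribosomal RNA, primed cDNA with random hexamers and sequenced it on an Illumina HiSeq instrument. The deposited files give, per library and transcript, the count of uniquely mapped reads, the length, the coverage (percentage of length with reads) and the RPKM, which the authors scaled to the total of the count column. The aligner, counting tool and genome build are not given in the sources used here. A transcript not listed in a library was given a count of 0. Known lncRNAs and assembled transcripts can overlap, the files carry no strand, and how reads shared by overlapping transcripts were counted is not stated.

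Counts were normalized by TMM and fitted with edgeR 4.0.16 (quasi-likelihood) in R 4.3.3, over the 39310 lncRNAs that reached 10 counts in 2 or more libraries, with 3 groups in one fit. SEs were derived from the fold change and the F statistic. The test of replicate numbers added the number as a term beside condition. Libraries held 7685843 to 8497549 counted reads, so 3 counts correspond to a share of 3.53e-07 to 3.90e-07. The scripts were tested on simulated counts. Alternatives were DESeq2 1.42.0 (Wald test and size factors), total counts, other count filters, 2-group fits, a replicate block and leaving out each library. Where leaving out a library left a condition with 1 library, that library was assumed to vary like the others. Between conditions, the differences of replicate 2 from replicate 1 correlated at 0.16 to 0.19 across lncRNAs tested, and at 0.513 to 0.585 for the 7503 of them with at least 100 normalized counts on average, so blocked values are given where they change a call. edgeR's quasi-likelihood FDR is adjusted by the Benjamini-Hochberg method. Exact permutation tests were two-sided.

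The members, the comparator and the lists were chosen with earlier results of these data known. Named besides them were the 5 lncRNAs most alike to each member, those with numbers within 5 of it, and the 2 next in abundance in N among lncRNAs changed in both comparisons.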

Additional observations from a re-analysis of the deposited data

How the results depend on the processing

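The withdrawal change of n271995 stayed between -1.83 and -1.31 and its refreshment change between 0.62 and 1.35 on the log2 scale over all alternatives. With 1 library left out, the 8h against N change of n271995 ranged from -0.96 to -0.24, and TCONS_00040388 ranged from -1.41 to -1.02 on withdrawal, from 0.66 to 1.31 on refreshment and from -0.54 to 0.11 for 8h against N, turning positive without replicate 1 of 8h. The log2 ratio of replicate 2 to replicate 1 then ranged from 0.30 to 0.63 for n271995, from 0.25 to 0.52 for TCONS_00040388 and from -0.156 to 0.049 for TCONS_00074936, whose sign changed (0.042 without replicate 1 of N, 0.038 and 0.044 without replicates 1 and 2 of 0h). With all libraries kept, both calls on the replicate number held under each other normalization, filter and tool (FDR at most 0.034). The recovery share of n271995 ranged from 26.3% to 76.4% with 1 library left out. For 8h against N the replicate block gave n271995 -0.58, against -0.57 without it, with a smaller SE. Per full length (RPKM), the mean ratio to TCONS_00074936 over the 6 libraries was 1.39 for n271995 and 1.38 for TCONS_00040388. In counts it was 1.06 and 1.04, since the comparator is longer. Reads lay on only 52.4% to 60.2% of the comparator's length, and levels per covered base were not compared.

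The number of lncRNAs called was 201 on withdrawal, 350 on refreshment, 92 for 8h against N and 973 between replicate numbers. Without a filter the first 3 became 531, 880 and 621, with DESeq2's Wald test 307, 549 and 358, and with the replicate block 644, 1248 and 1352. Fits of only the groups compared gave 114 on refreshment and 10 for 8h against N, and a minimum of 50 counts gave 1503 between replicate numbers. Leaving out 1 library gave 21 to 239, 11 to 188, 1 to 54 and 478 to 880, in that order. The cause of these differences was not tested. Counting error is small for transcripts as abundant as these, and the effect of depth on the calls was not tested. Coverage had no alternative.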
